A study of Mus musculus with 2 samples.

Results

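The respiratory chain and ATP synthase genes described here are the 91 genes of the deposited table, of 16906 in all, whose symbol begins with Nduf, Uqcr, Cox4 to Cox8 or Atp5, or is one of Sdha to Sdhd, Cyc1 and Cycs. By symbol, 45 belong to complex I, 4 to complex II, 9 to complex III, 1 is cytochrome c, 15 belong to complex IV and 17 to complex V. Bulk RNA was sequenced from about 20000 luminal cells of mouse mammary glands, collected by fluorescence-activated sorting. The CKO library (1 library) came from K8-CreERT2;miR-200c/141-flox/flox mice, in which a tamoxifen-activated Cre recombinase driven by the keratin 8 promoter removes the microRNA cluster in keratin 8 expressing cells. The Ctrl library (1 library) came from miR-200c/141-flox/flox mice without Cre. Mice of both groups were C57BL/6, 8 weeks old, and received tamoxifen. The interval after tamoxifen is 4 weeks in one label and 3 days in another and is therefore not settled here. The Cre transgene was present in CKO alone, so its effects and those of the deletion cannot be told apart. How many mice gave cells to a library is not given in the sources used here. The depth, estimated from the deposited p-values, was about 11400000 reads for CKO and 12500000 for Ctrl. With 1 library per group there is no replicate, no test between the groups was possible, and none of the differences below has been checked against the spread between mice.

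The respiratory chain lies in the inner mitochondrial membrane and passes electrons from NADH (complex I) and succinate (complex II) through ubiquinone to complex III, then through cytochrome c to complex IV, which reduces oxygen. Complexes I, III and IV pump protons, and ATP synthase (complex V) uses the return of protons to make ATP. Most subunits are encoded in the nucleus and imported, while a few core subunits of complexes I, III, IV and V are encoded in mitochondrial DNA, and those are not analysed here. Luminal cells of the mammary gland draw on this machinery during the energy-demanding synthesis of milk.

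Most of the 91 genes were abundant in both libraries, and most lay close together between them. Their FPKM (fragments scaled by transcript length and library size, a level that can be compared between genes) summed to 9233 in the CKO library and 8913 in the Ctrl library, which was 1.94% of all FPKM in CKO and 1.97% in Ctrl. Ratios are given as log2 of CKO over Ctrl with 0.5 FPKM added to each value. Of the 91 genes, 88 had a mean of at least 1 FPKM over both libraries, and their median log2 ratio was 0.035, beside -0.027 over all 11667 genes at that level. At least 1.2-fold higher in CKO were 5 members, Cox7a1, Ndufaf2, Uqcrb, Sdhc and Ndufb10, while 10.6% of all genes tested were past that fold. At least 1.2-fold lower were 2 members, Ndufaf6 and Atp5s, beside 16.8% of all genes tested. At 1.5-fold, 1 member was higher (Cox7a1, background 2.47%) and 1 lower (Ndufaf6, background 3.15%). Within 1.2-fold lay 81 of the 88 members, or 92.0%, against 72.5% of all genes tested. Among genes with a mean of at least 30 FPKM that share was 95.9% of 73 members and 85.8% of 2735 genes.

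Of the 77 members that build the complexes (core and accessory subunits, cytochrome c and Ndufa4, leaving out assembly factors and copies used mainly in other tissues), 0 were lower by 1.2-fold and 3 were higher by it. Their log2 ratios ran from -0.13 for Ndufs8 to 0.38 for Uqcrb. The order of their FPKM was nearly the same in both libraries, with a Spearman rho of 0.992 across these 77 genes, which are not independent of each other. No rho was computed over all genes tested, so this value has no background. Basal cell markers also differed between the libraries. Of Krt5, Krt14, Acta2, Myh11 and Trp63, 4 were at least 1.5-fold higher in CKO. Trp63 went the other way, at 1.05 FPKM in CKO and 2.96 FPKM in Ctrl, a log2 ratio of -1.16. The summed level of these markers, most of it from Krt14 and Acta2, was 183 FPKM in CKO and 95.3 in Ctrl. The luminal markers Krt8, Krt18, Epcam and Cd24a were abundant in both libraries, with a sum of 16532 FPKM in CKO and 12054 in Ctrl. Krt18 alone was at 10398 FPKM in CKO and 6607 FPKM in Ctrl, a log2 ratio of 0.65. For Krt8, Epcam and Cd24a the log2 ratios were 0.21, 0.052 and 0.14. The part of the basal and luminal markers in the ratios given here was not tested. The levels of the deleted microRNAs are not analysed here. In bulk RNA, fewer cells of a type and less RNA per cell cannot be told apart.

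**Figure D1:**
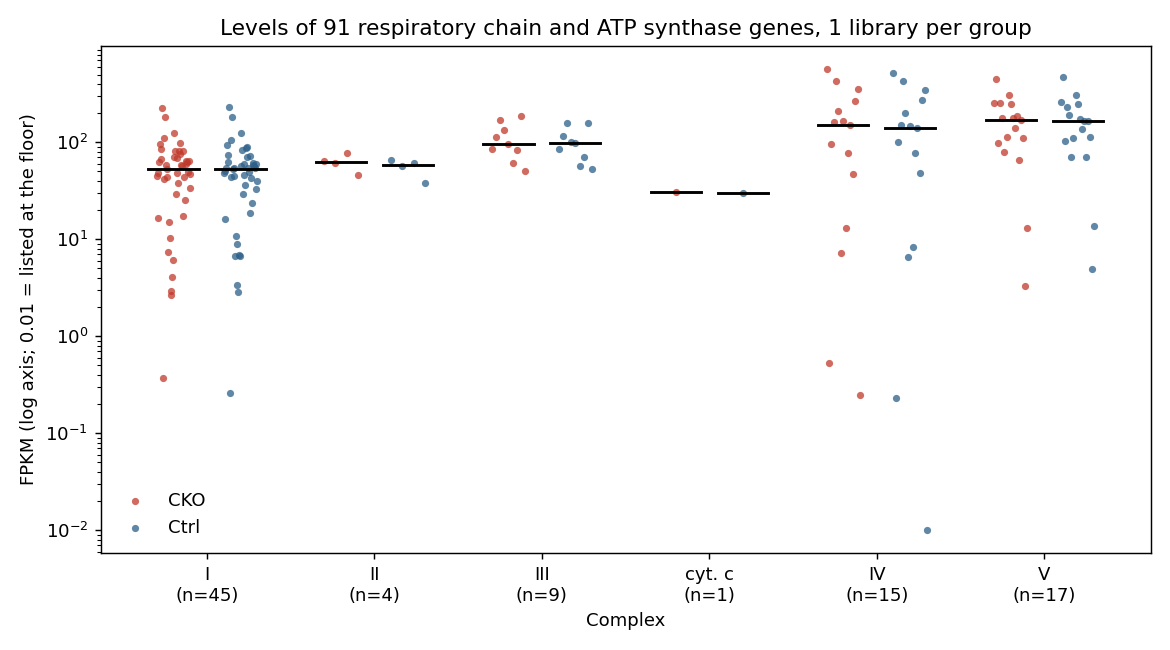
Level of each of the 91 genes in FPKM (log axis) in the CKO library (red, left) and the Ctrl library (blue, right), grouped by complex, with a bar at the median. Medians increase in the order cytochrome c, complex I, complex II, complex III, complex IV and complex V in both libraries, and the low points in complexes I, IV and V are assembly factors and tissue copies.

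MicroRNAs lower the output of messenger RNAs whose 3' UTR pairs with the seed, bases 2 to 8 of the mature strand. The deleted cluster gives microRNAs with different seeds, and the sequences (RefSeq, GRCm38.p6, minus strand of chromosome 6 at 124717917 to 124717938 and 124718324 to 124718346) are shown with the seed in capitals because the search for sites rests on them:
miR-141-3p: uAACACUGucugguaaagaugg
miR-200c-3p: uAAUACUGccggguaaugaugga
Matches to these seeds were scarce in the respiratory chain. In the longest annotated 3' UTR of a protein-coding transcript (GENCODE M21, GRCm38), 4 of 91 members (4.40%) held the DNA 7-mer CAGTGTT or CAGTATT, against 29.9% of 11442 genes tested. The UTRs of the members were also shorter, with a median of 235 bases against 1164. The sites are given with the 7-mer in capitals, on the strand of the transcript, all in the last annotated exon:
Atp5g2 (chr15:102664958-102664964, minus strand, miR-141-3p): aggccactaactCAGTGTTgttact
Ndufab1 (chr7:122086803-122086809, minus strand, miR-141-3p): tgcctataacccCAGTGTTaggaga
Ndufc1 (chr3:51405124-51405130, minus strand, miR-200c-3p): aattcaaaattaCAGTATTtgagat
Ndufb2 (chr6:39601361-39601367, plus strand, first of 3 sites for miR-200c-3p): attcaatcttcaCAGTATTatttct
Only in Atp5g2, which encodes a c-ring subunit of ATP synthase, was the UTR with the site (311 bases) shorter than the transcript length in the deposited table (647 bases). For Ndufab1, Ndufc1 and Ndufb2 the UTR was longer than that whole length, at 2944 against 671, 960 against 414 and 4012 against 473 bases, so the transcript length behind their FPKM does not include the UTR that holds the site. The log2 ratio was -0.024 (-0.11 to 0.058) for Atp5g2, -0.03 for Ndufab1, 0.081 for Ndufc1 and -0.059 for Ndufb2, where the range in brackets, here and below, is a 95% exact conditional binomial interval of the estimated reads. All 4 intervals held 0, although that of Atp5g2 lay below 0 when libraries were scaled to the same sum of FPKM. Such an interval accounts for counting error alone. PCR copies of a molecule count as separate reads, so it can be too narrow even for that. Of the 88 members the interval lay above 0 for 19, below 0 for 4 and held 0 for 65. These counts moved with the scaling, to 10 above and 11 below when libraries were scaled to the same sum of FPKM, and to 23 above and 2 below when centred on all genes tested. The share of all genes tested with such an interval was not computed, so neither these counts nor those by complex below have a background.

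Complex I takes electrons from NADH in its matrix arm and pumps protons in its membrane arm. Its 45 members by symbol are 7 core subunits, 29 accessory subunits, 7 assembly factors and the related genes Ndufa4 and Ndufa4l2. The 7 core subunits, which between them carry the flavin and the iron-sulfur clusters, had a median log2 ratio of 0.03. The lowest was Ndufs8, which binds a pair of iron-sulfur clusters, at 49.8 FPKM in the CKO library and 54.4 FPKM in the Ctrl library, a ratio of -0.13 (-0.31 to 0.048). With libraries scaled to the same sum of FPKM its interval lay below 0 (-0.39 to -0.029). Ndufv1, which binds the flavin and NADH, stood at 64.5 FPKM in the CKO library and 59.7 FPKM in the Ctrl library, and Ndufs1, which carries several iron-sulfur clusters, at 17.6 FPKM in the CKO library and 18.5 FPKM in the Ctrl library.

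The accessory subunits, which surround and stabilise the core, gave a similar median. Of 29, 20 had a ratio above 0 and 9 below, with a median of 0.046. The highest was Ndufb10 of the membrane arm, at 70.7 FPKM in the CKO library and 56.8 FPKM in the Ctrl library, a ratio of 0.31 (0.14 to 0.50), and the lowest was Ndufa1, a single-pass subunit, at 45.4 FPKM in the CKO library and 48.7 FPKM in the Ctrl library, a ratio of -0.099 (-0.34 to 0.14). Ndufb4, Ndufc2 and Ndufv3 were the other accessory subunits whose interval excluded 0, each with a ratio of 0.22, and all 3 intervals held 0 when libraries were scaled to the same sum of FPKM. The 16 subunits of the matrix arm and the 19 of the membrane arm did not separate, at medians of 0.051 and 0.046. Ndufab1, the acyl carrier protein found in both arms, had a ratio of -0.03. The most abundant member by symbol, Ndufa4, is now known as a subunit of complex IV, and it stood at 225 FPKM in the CKO library and 229 FPKM in the Ctrl library.

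The assembly factors of complex I spread over a wider range of ratios than its subunits and were less abundant than most of them. Their FPKM lay between 2.68 and 15.2 in CKO and between 2.85 and 10.8 in Ctrl. Ndufaf6, known from human cells to support the mitochondrially encoded ND1 subunit, stood at 4.07 FPKM in the CKO library and 6.96 FPKM in the Ctrl library. It was the lowest of all 91 members, with a ratio of -0.71 (-1.28 to -0.29) from about 55 reads in CKO and 103 in Ctrl. Ndufaf2, an assembly factor that resembles the subunit Ndufa12, lay on the other side at 15.2 FPKM in the CKO library and 10.8 FPKM in the Ctrl library, a ratio of 0.48 (0.10 to 0.91) from about 122 reads in CKO and 94 in Ctrl. Annotated exons of Ndufaf2 overlap those of the noncoding gene B230220B15Rik on the other strand, and whether the counting used strand is not given in the sources used here. The deposited false discovery rates, from the authors' test of one library's reads against the other's, were 0.00982 for Ndufaf6 and 0.0537 for Ndufaf2 in the authors' deposited table. The other 5 factors, Ndufaf1, Ndufaf3, Ndufaf4, Ndufaf5 and Ndufaf7, had ratios of 0.15, 0.19, -0.20, -0.075 and -0.14, and each interval held 0.

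Complex II, succinate dehydrogenase, had the highest summed ratio toward CKO, and its genes fell into a pair that was higher in CKO and a pair whose intervals held 0. The membrane anchors Sdhc and Sdhd, which bind ubiquinone and heme, were the higher pair. Sdhc stood at 78.1 FPKM in the CKO library and 60.5 FPKM in the Ctrl library, a ratio of 0.36 (0.24 to 0.50), and Sdhd at 46.0 FPKM in the CKO library and 38.4 FPKM in the Ctrl library, a ratio of 0.26 (0.10 to 0.42). The catalytic subunits differed less between the libraries. Sdha, which holds the flavin, was at 64.8 FPKM in the CKO library and 65.0 FPKM in the Ctrl library, a ratio of -0.0049 (-0.091 to 0.081), and the iron-sulfur subunit Sdhb was at 61.2 FPKM in the CKO library and 56.6 FPKM in the Ctrl library, a ratio of 0.11 (-0.032 to 0.26). The interval of Sdhb overlaps those of both Sdhc and Sdhd, while that of Sdha lies below both. In the authors' deposited table Sdhc had a false discovery rate of 5.1e-07, which compares the libraries and not the genotypes. The summed level of complex II was 250.1 FPKM in CKO and 221 in Ctrl, a log2 ratio of 0.18, and without Sdhc, on average its most abundant gene, 0.10.

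Complex III passes electrons from ubiquinol to cytochrome c. Of its 9 genes, 4 had intervals above 0 and 5 intervals that held 0. When libraries were scaled to the same sum of FPKM, Uqcrc2 no longer had an interval above 0, which left 3, and that of Uqcrc1 lay below 0. Uqcrb, a small subunit near the ubiquinone site, stood at 132 FPKM in the CKO library and 102 FPKM in the Ctrl library, a ratio of 0.38 (0.22 to 0.53) and the highest of all structural subunits. Its exons overlap those of Gm10767 on the other strand. The hinge protein gene Uqcrh was at 187 FPKM in the CKO library and 159 FPKM in the Ctrl library, a ratio of 0.23 (0.12 to 0.35). Of the catalytic subunits, the Rieske iron-sulfur protein gene Uqcrfs1 was at 82.4 FPKM in the CKO library and 70.5 FPKM in the Ctrl library, a ratio of 0.22 (0.11 to 0.34), while cytochrome c1 (Cyc1) was at 84.9 FPKM in the CKO library and 85.7 FPKM in the Ctrl library, a ratio of -0.012 (-0.13 to 0.10). The core proteins Uqcrc1 and Uqcrc2, which sit together on the matrix side, had ratios of -0.04 (-0.13 to 0.051) and 0.11 (0.0035 to 0.23). Exons of Uqcrc2 overlap those of Pdzd9 on the other strand. The lowest was Uqcrq, at 50.6 FPKM in the CKO library and 52.5 FPKM in the Ctrl library. The interval of Uqcrb lies wholly above those of Cyc1 and Uqcrc1, but Uqcrb was picked as the highest of the 9 genes. Whether the subunits of complex III shared 1 ratio was not tested. The mobile carrier cytochrome c (Cycs), which also triggers caspases when it leaves mitochondria, was at 30.7 FPKM in the CKO library and 29.7 FPKM in the Ctrl library, a ratio of 0.048 (-0.072 to 0.17).

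Complex IV, cytochrome c oxidase, held the most abundant gene of the whole group. Cox4i1, the usual form of its largest nuclear subunit, stood at 570.2 FPKM in the CKO library and 515 FPKM in the Ctrl library, a ratio of 0.15 (0.089 to 0.20) with a deposited false discovery rate of 7.91e-06 in the authors' deposited table. Cox6c was at 168 FPKM in the CKO library and 147 FPKM in the Ctrl library, a ratio of 0.19 (0.06 to 0.32). When libraries were scaled to the same sum of FPKM the interval of Cox4i1 stayed above 0 and that of Cox6c held 0. Exons of Cox4i1 overlap those of Emc8, and exons of Cox6c those of Vps13b, both on the other strand. Over its 11 structural subunits the median log2 ratio was 0.013. The lowest was Cox5a at 94.97 FPKM in the CKO library and 101 FPKM in the Ctrl library, a ratio of -0.094 (-0.24 to 0.046). With libraries scaled to the same sum of FPKM its interval lay below 0 (-0.31 to -0.031). Cox6a1, Cox8a and Cox7c, each above 250 FPKM in both libraries, had ratios of 0.0019, 0.013 and -0.021, with 0 inside every interval.

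Several subunits of complex IV exist as copies used in particular tissues, and the common forms prevailed here. Cox7a1, the form of heart, skeletal muscle and brown fat, was the only member at least 1.5-fold higher in CKO, and it lay under 1.5-fold with 1 FPKM added or with libraries scaled to the same sum of FPKM, where its interval also held 0. It stood at 13.0 FPKM in the CKO library and 8.4 FPKM in the Ctrl library, a ratio of 0.60 (0.053 to 1.26) from about 59 reads in CKO and 41 in Ctrl, and its deposited false discovery rate was 0.127 in the authors' deposited table. Its broadly expressed counterpart Cox7a2 was nearly equal, at 78.2 FPKM in CKO and 78.25 FPKM in Ctrl, and Cox7a2l, which links complexes III and IV in supercomplexes, was at 151 FPKM in CKO and 141 FPKM in Ctrl. Of the summed Cox7a level, Cox7a1 made up 5.38% in CKO and 3.68% in Ctrl. Markers of tissues rich in Cox7a1 were also measured. Of the muscle markers Ckm, Acta1 and Mb, Mb alone passed 1 FPKM, at 4.83 FPKM in CKO and 4.19 FPKM in Ctrl, and the 3 summed to 5.14 FPKM in CKO and 4.47 FPKM in Ctrl. The heart gene Myh6 was listed at the floor of 0.01 FPKM in both libraries and Tnnt2 was at 4.35 FPKM in CKO and 6.7 FPKM in Ctrl. The fat markers Fabp4 and Cidea passed 1 FPKM and both were over 1.2-fold higher in CKO. Fabp4 was at 44.2 FPKM in CKO and 33.4 FPKM in Ctrl, a ratio of 0.40 (0.17 to 0.64), and Cidea at 17.3 FPKM in CKO and 13.6 FPKM in Ctrl, a ratio of 0.33 (0.07 to 0.63). Plin1 was at 0.05 FPKM in CKO and 0.17 FPKM in Ctrl, and the brown fat gene Ucp1 was listed at the floor in CKO and at 0.2 FPKM in Ctrl, both from at most 4 reads in a library. These 4 fat markers summed to 61.6 FPKM in CKO and 47.4 FPKM in Ctrl. Their part in the Cox7a1 difference was not tested.

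The other tissue copies were rare. Cox6b2, known from testis, was at 7.22 FPKM in the CKO library and 6.54 FPKM in the Ctrl library, beside 213 in CKO and 203 in Ctrl for Cox6b1. Cox4i2, a form known from lung and low oxygen, stood at 0.53 FPKM in CKO and 0.23 FPKM in Ctrl, and its share of the Cox4i level was 0.0929% in CKO and 0.0446% in Ctrl. Ndufa4l2, a relative of Ndufa4 known to be induced by low oxygen, was at 0.37 FPKM in CKO and 0.26 in Ctrl. Cox8b, the form of heart, muscle and brown fat, had about 1 read in CKO and was listed at the floor in Ctrl, so no difference was detectable at this depth. These last 3 genes are the members that missed the mean of 1 FPKM.

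**Figure D2:**
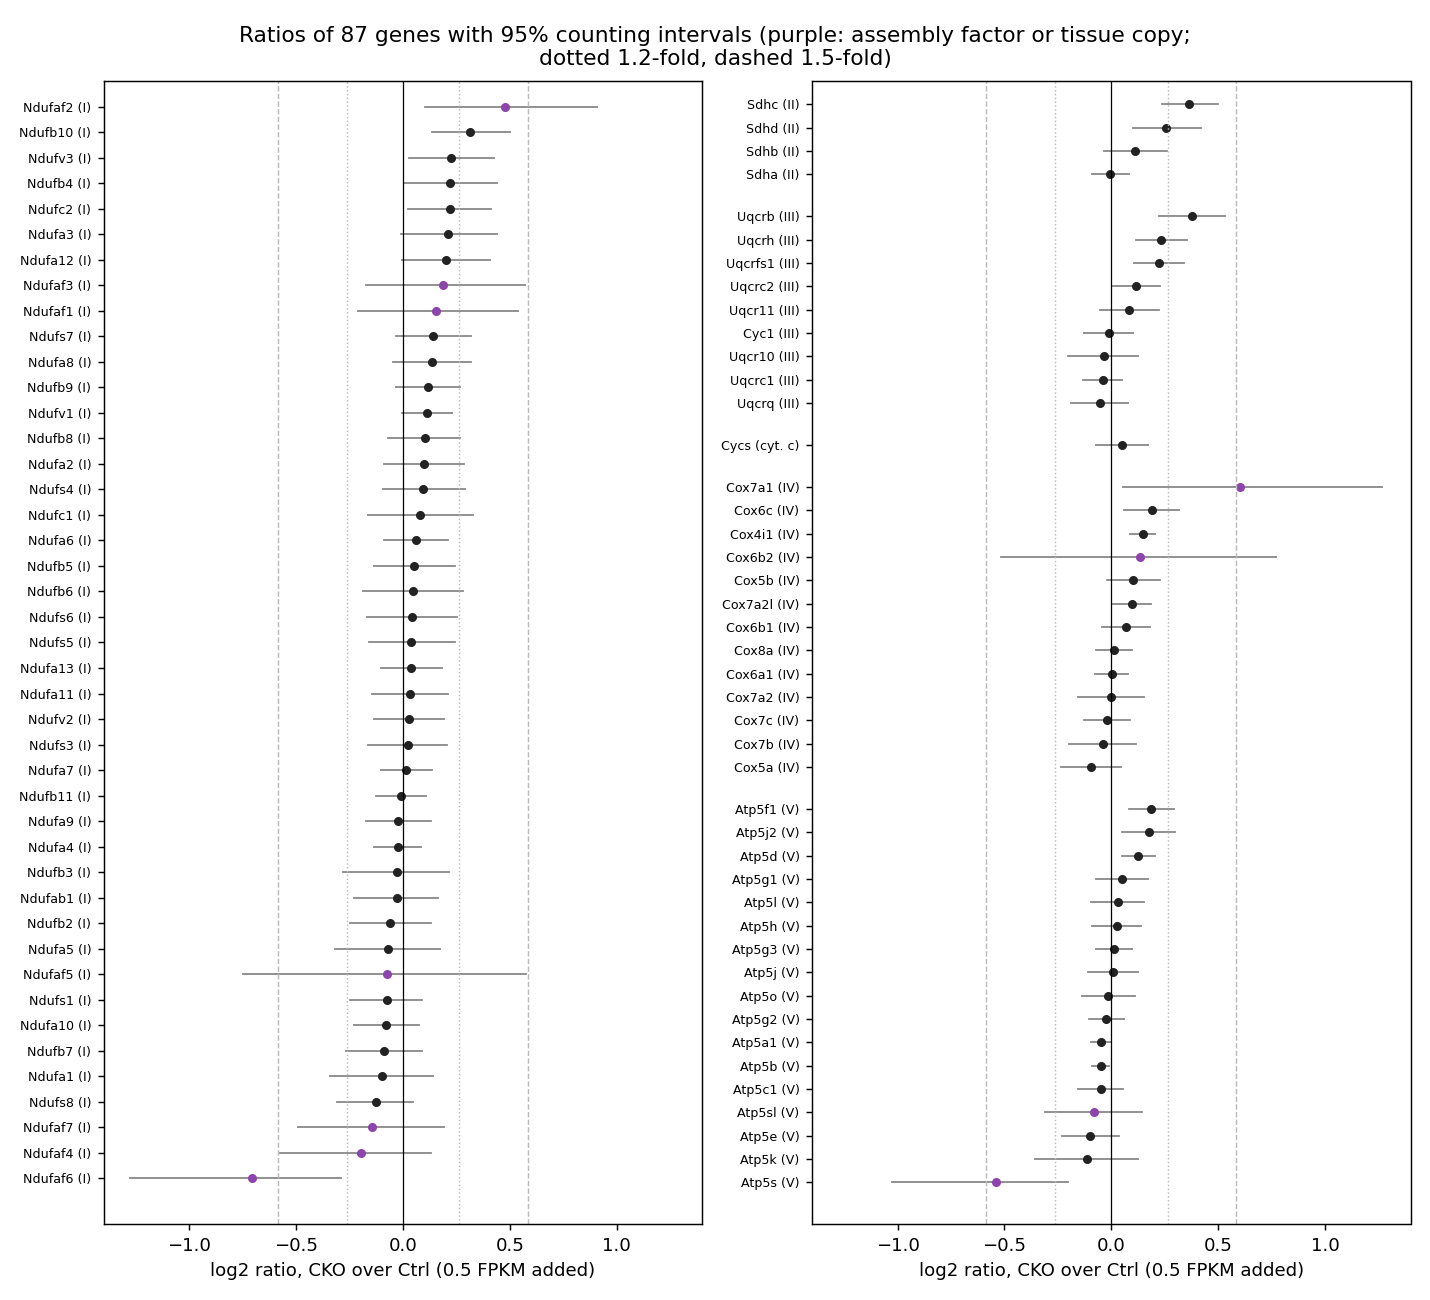
Log2 ratio of CKO over Ctrl (horizontal axis) for the members with a mean of at least 1 FPKM, apart from 1 that is not reported, with 95% counting intervals, sorted within each complex; purple marks assembly factors and tissue copies. The points beyond the dashed 1.5-fold lines are Cox7a1 and Ndufaf6, and the structural subunits in black lie between -0.13 and 0.38.

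Complex V had the highest summed level of the complexes. Its median log2 ratio was -0.014, but -0.090 when libraries were scaled to the same sum of FPKM and -0.096 relative to genes of the same length. The catalytic F1 head had 4 of 5 genes slightly below 0. The beta subunit Atp5b stood at 455 FPKM in the CKO library and 470.4 FPKM in the Ctrl library, a ratio of -0.049 (-0.089 to -0.0098), the alpha subunit Atp5a1 at 253 FPKM in the CKO library and 262 FPKM in the Ctrl library, a ratio of -0.048 (-0.094 to -0.0017), and the stalk subunit gamma (Atp5c1) at 99.3 FPKM in the CKO library and 103 FPKM in the Ctrl library. The delta subunit Atp5d lay on the other side at 254 FPKM in the CKO library and 232 FPKM in the Ctrl library, a ratio of 0.13 (0.049 to 0.20). Exons of Atp5d overlap those of Cbarp, and exons of Atp5a1 those of Haus1, both on the other strand. With about 9773 reads in CKO and 11047 in Ctrl for Atp5b the interval excluded 0 at a difference of only a few percent. The intervals of Atp5b and Atp5a1 held 0 when ratios were centred on all genes tested. When libraries were scaled to the same sum of FPKM, that of Atp5d held 0. On that scaling the intervals of Atp5b, Atp5a1, Atp5c1 and Atp5e, also of the head, lay below 0.

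In the membrane part and the peripheral stalk, which holds the head still, the b subunit Atp5f1 was highest, at 80.3 FPKM in the CKO library and 70.5 FPKM in the Ctrl library, a ratio of 0.19 (0.081 to 0.29). Its exons overlap those of Wdr77 on the other strand. Atp5j2, the f subunit, was at 186 FPKM in the CKO library and 165 FPKM in the Ctrl library, a ratio of 0.17 (0.049 to 0.30), with 0 inside the interval when libraries were scaled to the same sum of FPKM. Atp5k, the e subunit, was the lowest subunit of complex V at 65.7 FPKM in the CKO library and 71.0 FPKM in the Ctrl library, a ratio of -0.11 (-0.36 to 0.12). The rotating c ring is built from a single mature protein encoded by 3 genes with different import sequences. Their split was nearly the same in both libraries. Of their summed FPKM, Atp5g2 supplied 45.5% in CKO and 46.4% in Ctrl, Atp5g3 37.4% in CKO and 37.1% in Ctrl, and Atp5g1 17.1% in CKO and 16.5% in Ctrl. Summed over the 3 genes the level was 672 FPKM in CKO and 671 in Ctrl.

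A pair of genes with Atp5 symbols are not subunits of the enzyme. Atp5s, also called coupling factor B (Dmac2l in RefSeq), was at 3.26 FPKM in the CKO library and 4.96 FPKM in the Ctrl library, a ratio of -0.54 (-1.03 to -0.20) from about 81 reads in CKO and 135 in Ctrl, and was the lowest of the 17 members of this group. Its deposited false discovery rate was 0.0233 in the authors' deposited table. Its relative Atp5sl (Dmac2 in RefSeq), which acts in complex I assembly, was at 13.1 FPKM in the CKO library and 13.8 FPKM in the Ctrl library, a ratio of -0.079 (-0.31 to 0.14).

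Summed over their members, the complexes differed more in level than in ratio. Complex V summed to 2857 FPKM in CKO and 2845 FPKM in Ctrl, complex I to 2565 FPKM in CKO and 2468 FPKM in Ctrl, complex IV to 2552 FPKM in CKO and 2447 FPKM in Ctrl, and complex III to 978 FPKM in CKO and 901 FPKM in Ctrl. Per structural subunit the order was different, with complex I last. The median was 176 FPKM in CKO and 166 FPKM in Ctrl for complex V, 168 FPKM in CKO and 149.8 FPKM in Ctrl for complex IV, and 96.5 FPKM in CKO and 99.2 FPKM in Ctrl for complex III. It was 63.0 FPKM in CKO and 58.6 FPKM in Ctrl for complex II and 60.1 FPKM in CKO and 54.7 FPKM in Ctrl for complex I. Within a complex the levels were uneven, with the most abundant structural subunit above the least abundant by 13.6-fold in CKO and 14.2-fold in Ctrl for complex I, and by 1.7-fold in CKO and 1.69-fold in Ctrl for complex II. The log2 ratio of summed FPKM was 0.18 for complex II and 0.12 for complex III, both also above 0 under the other scalings. For complex IV it was 0.06, but -0.016 when each library was scaled to the same sum of FPKM, and for complex I 0.056, but -0.021 on that scaling. For complex V it was 0.0057, but -0.071 on that scaling. From summed reads the log2 ratio was 0.13 (0.071 to 0.19) for complex II and -0.0075 (-0.029 to 0.013) for complex V. These intervals do not overlap, but with 1 library per group the difference between complexes was not tested against the spread between mice. Scaling to the same sum of FPKM lowers log2 ratios by 0.077, more than the lower bound for complex II. On that scaling its interval holds 0, as does that of complex III, which was 0.087 (0.046 to 0.13) as deposited. The same goes for complex I, at 0.054 (0.027 to 0.080) as deposited, and complex IV, at 0.065 (0.036 to 0.094). The interval of complex V, which holds 0 as deposited, lies wholly below 0 on that scaling.

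**Figure D3:**
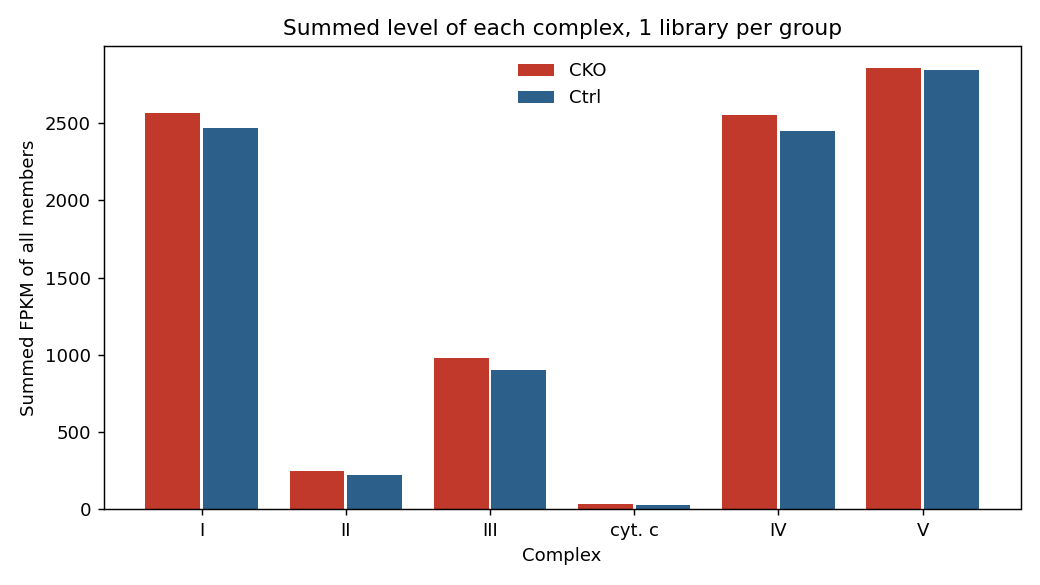
Summed FPKM of the members of each complex in the CKO library (red, left bar) and the Ctrl library (blue, right bar), on an axis that starts at 0. The largest pair of bars is complex V at 2857 in CKO and 2845 in Ctrl. The log2 ratios of summed FPKM of complexes II and III stay above 0 under every scaling tried. With libraries scaled to the same sum of FPKM they are 0.10 and 0.041, without an interval. On that scaling the slight excess of complexes I and IV in CKO turns round.

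These genes have short transcripts, and in this pair of libraries the ratio moved with length across all genes. The median transcript length was 754 bases for the 91 members and 2776 for all genes tested. In the shortest decile of all genes tested, the median log2 ratio was 0.11, and in the longest decile, from 6003 bases, it was -0.20. Of the 88 members 59 lay in the shortest decile, where their median was 0.050. Measured against the median of their own length decile, 31 of 88 members were above it and the median member lay at -0.065. By that measure the median was -0.096 for complex V, -0.064 for complex I, -0.045 for complex IV and -0.029 for complex III, against -0.014, 0.04, 0.069 and 0.084 before it. All 4 then lay below 0. Complex II stayed above 0, at 0.10. The values for complex IV include the tissue copies Cox7a1 and Cox6b2. Over its 11 structural subunits alone the median was -0.10 by that measure, against 0.013 before it. The part of transcript length in the ratios was not tested further.

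**Figure D4:**
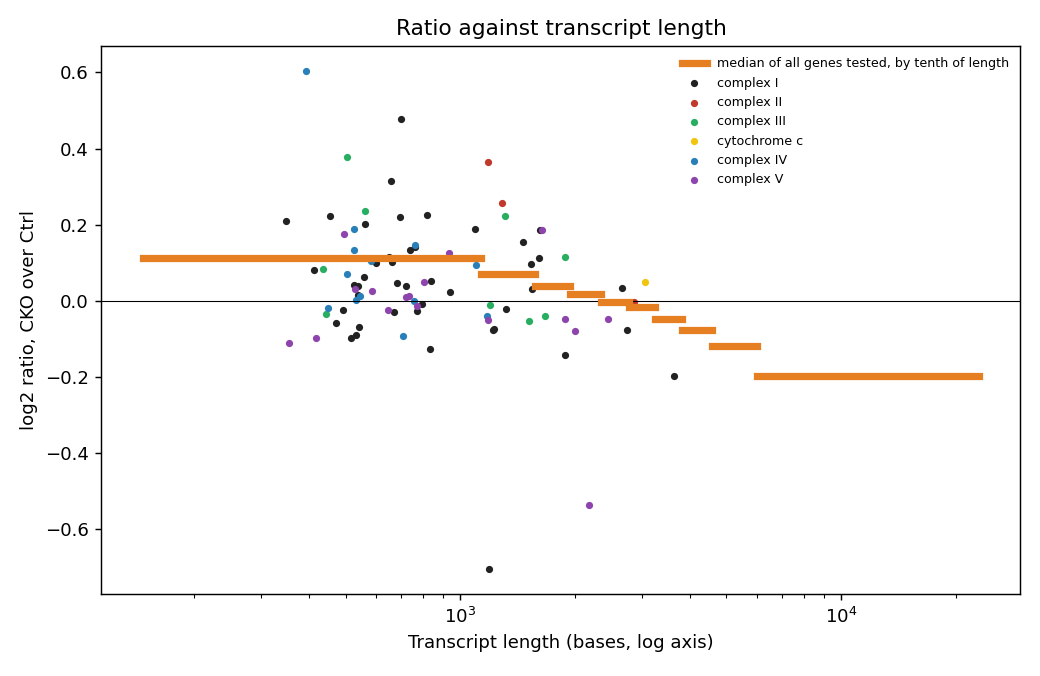
Log2 ratio of CKO over Ctrl against transcript length in bases (log axis) for the 88 members, coloured by complex, with orange bars at the median of all genes tested in each length decile. The bars step down from 0.11 in the shortest decile to -0.20 in the longest, and most members of complexes I, IV and V lie below the bar of their length.

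Nuclear genes of the respiratory chain are classically controlled by NRF1 and by ETS-family factors, with sites near the start of transcription, and YY1 and estrogen-related receptors also bind many of them. RefSeq promoters (GRCm38.p6, 250 bases before to 50 after the start) matched 76 of the 91 members. The NRF1 core, in the form printed in capitals in the promoters of Sdha, Sdhd and Cox6a1, was in 19 of 76 (25%), against 11.8% of 9339 genes tested that have a promoter sequence and 4.6% of all 32851 promoters. The YY1 core AAGATGGC was in 11 of 76 (14.5%) against 5.44% of genes tested and 2.75% of all promoters. The estrogen-related receptor core AAGGTCA was in 8 (10.5%) against 3.84% of genes tested and 4.72% of all promoters. For the ETS core CCGGAAG the shares were 22.4% of members (17), 20.7% of genes tested and 8.86% of all promoters. For the SP1 box GGGCGG they were 44.7% of members (34), 70.0% of genes tested and 35.7% of all promoters. The motifs were searched on both strands and overlaps between different motifs were allowed. Among members that passed 1 FPKM, the median log2 ratio was 0.0019 in the 19 with the NRF1 core and 0.047 in the 56 without it. For YY1 the order was the other way, at 0.095 in the 11 with the core and 0.024 in the 64 without it. With and without the motif the medians were 0.025 and 0.035 for ETS, 0.021 and 0.033 for the estrogen-related receptors, and 0.042 and 0.025 for SP1.

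Promoters are shown for a higher and an even gene of complex II and for a common and a tissue-specific subunit of complex IV, with NRF1 matches in capitals and positions on GRCm38.p6:
Sdhd (chr9:50603800-50604099, minus strand, ratio 0.26): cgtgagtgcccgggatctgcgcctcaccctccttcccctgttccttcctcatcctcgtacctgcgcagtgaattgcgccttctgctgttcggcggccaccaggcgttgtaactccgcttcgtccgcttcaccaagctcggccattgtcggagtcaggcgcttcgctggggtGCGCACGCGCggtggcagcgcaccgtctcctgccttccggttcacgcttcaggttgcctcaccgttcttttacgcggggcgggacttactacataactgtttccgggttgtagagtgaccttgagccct
Sdha (chr13:74350191-74350490, minus strand, ratio -0.0049): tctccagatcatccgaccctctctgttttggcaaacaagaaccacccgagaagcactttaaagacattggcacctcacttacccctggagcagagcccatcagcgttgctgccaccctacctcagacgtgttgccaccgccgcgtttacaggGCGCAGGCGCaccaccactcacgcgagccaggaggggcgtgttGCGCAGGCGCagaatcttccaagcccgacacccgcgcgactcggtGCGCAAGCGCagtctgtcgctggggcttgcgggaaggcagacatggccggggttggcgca
Cox6a1 (chr5:115348909-115349208, minus strand, ratio 0.0019): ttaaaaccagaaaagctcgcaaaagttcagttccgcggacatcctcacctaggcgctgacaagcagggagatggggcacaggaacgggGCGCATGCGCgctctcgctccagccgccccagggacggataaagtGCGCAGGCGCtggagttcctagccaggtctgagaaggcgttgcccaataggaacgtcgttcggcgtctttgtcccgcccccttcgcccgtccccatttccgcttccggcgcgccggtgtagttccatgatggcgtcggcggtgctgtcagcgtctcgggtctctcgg
Cox7a1 (chr7:30183921-30184220, plus strand, ratio 0.60): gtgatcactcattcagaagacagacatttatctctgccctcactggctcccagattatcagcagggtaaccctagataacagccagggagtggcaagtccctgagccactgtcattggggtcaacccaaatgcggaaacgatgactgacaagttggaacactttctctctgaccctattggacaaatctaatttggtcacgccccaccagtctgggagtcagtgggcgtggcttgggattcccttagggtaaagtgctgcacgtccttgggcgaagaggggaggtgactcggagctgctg
Sdha held 3 matches, Cox6a1 2 and Sdhd 1, while Cox7a1 held none of the 5 motifs. A match is only a string of letters, and its absence from this window says nothing about the factor.

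Other listed genes serve the complexes without carrying their symbols. Of 46 such genes, mostly assembly factors, with the ATP synthase inhibitor and Usmg5, an ATP synthase subunit under an older symbol, 44 were in the table and passed 1 FPKM. In CKO, 2 exceeded Ctrl by 1.2-fold or more and 6 lay below it by as much, beside 10.6% and 16.8% of all genes tested, and the median log2 ratio was -0.039. Those past 1.5-fold were all weakly expressed. Sdhaf4, an assembly factor of Sdha, was at 4.18 FPKM in CKO and 8.52 FPKM in Ctrl, a ratio of -0.95 (-1.69 to -0.42). Coa4, a complex IV factor, was at 1.22 FPKM in CKO and 2.51 FPKM in Ctrl, a ratio of -0.81 (-2.14 to -0.096), and Pet117, also for complex IV, was at 2.81 FPKM in CKO and 1.65 FPKM in Ctrl, a ratio of 0.62 (-0.90 to 2.27). Among those with a mean of at least 5 FPKM the lowest for complex IV was Cox18, which inserts the mitochondrially encoded COX2, at -0.31 (-0.69 to 0.018), and the highest was Surf1 at 0.20 (-0.038 to 0.44). For complex V the lowest was Tmem70, which helps build the c ring, at 11.6 FPKM in CKO and 15.2 FPKM in Ctrl, a ratio of -0.38 (-0.64 to -0.14). For complex I Ecsit had 0.24 (-0.072 to 0.59) and Acad9 -0.18 (-0.36 to -0.015), and for complex III Uqcc1 had 0.041 (-0.17 to 0.26) and Ttc19 -0.24 (-0.47 to -0.04). The other genes past 1.2-fold had a mean under 5 FPKM. Cox15, for complex IV, was at 3.74 FPKM in CKO and 5.48 FPKM in Ctrl, a ratio of -0.50 (-0.81 to -0.30). Tmem186, for complex I, had -0.49 (-0.97 to -0.17). Coa6, for complex IV, lay on the higher side at 0.28 (-0.38 to 1.05).

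Regulators, import genes and electron-entry genes made shorter lists, for which the background is the same 10.6% of all genes tested that were 1.2-fold higher and 16.8% that were lower. Of 12 regulators of mitochondrial gene expression 10 passed 1 FPKM, 0 were 1.2-fold higher and 1 was lower. That was Tfb1m, which modifies mitochondrial ribosomal RNA, at 1.92 FPKM in CKO and 2.71 FPKM in Ctrl, a ratio of -0.41 (-1.23 to 0.23). Nrf1 was at 15.5 FPKM in CKO and 13.0 FPKM in Ctrl, a ratio of 0.24 (0.076 to 0.43) whose lower bound is about the size of the shift between scalings, and Gabpb1, a partner of the ETS factor Gabpa, at 31.5 FPKM in CKO and 35.9 FPKM in Ctrl, a ratio of -0.19 (-0.32 to -0.06). The coactivators Ppargc1a and Ppargc1b were scarce. Ppargc1a was at 0.08 FPKM in CKO and 0.25 FPKM in Ctrl and Ppargc1b, in the other direction, at 0.31 FPKM in CKO and 0.14 FPKM in Ctrl. Among 14 genes of import and mitochondrial mass, 2 were 1.2-fold higher and 0 lower: Timm44, at 28.7 FPKM in CKO and 22.5 FPKM in Ctrl, and Timm23, at 73.5 FPKM in CKO and 58.4 FPKM in Ctrl, both parts of the inner membrane import machinery, with ratios of 0.35 (0.18 to 0.53) and 0.33 (0.20 to 0.47). Citrate synthase (Cs), often used as a gauge of mitochondrial content, was at 63.7 FPKM in CKO and 64.9 FPKM in Ctrl. Most of this list leaned the other way: Cs, Hspd1 and Hspe1 had ratios below 0 and all other listed genes above it. Over the 14 genes the median log2 ratio was 0.087, and they summed to 1263 FPKM in CKO and 1184 FPKM in Ctrl. Of 11 genes that feed electrons to ubiquinone or make it, 0 passed 1.2-fold in either direction, with Gpd2 highest at 0.21 (0.11 to 0.33) and Coq9, of the ubiquinone pathway, lowest of those above 5 FPKM at -0.088 (-0.36 to 0.17).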

How the data were processed

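Per the submitters' processing notes, HISAT, Bowtie2, RSEM and the mm10 genome were used; versions are not given in the sources used here. The deposited table gives 1 expression value per gene and library. Its header names no unit; multiplied by transcript length in kilobases the deposited values sum to 999909 in CKO and 999609 in Ctrl, so they are FPKM, listed at 0.01 where a gene has no reads. The deposited log2 fold change is the log2 ratio of those values, and the authors' deposited p-values and false discovery rates compare the reads of 1 library with those of the other.

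Read totals were estimated from the deposited p-values with the formula of the Poisson test of Audic and Claverie. Genes listed at the floor in Ctrl gave a CKO share of 0.4779, with a whole number of reads within 0.02 for 620 of 641 genes, and a fit to 10767 genes put the depth at about 11400000 reads for CKO and 12500000 for Ctrl. This step was tested on simulated reads whose p-values were made with the same formula. Such a test cannot show that the deposited p-values follow that formula. Python 3.11.15, numpy 2.4.6, pandas 2.3.3 and scipy 1.17.1 were used. Ratios are log2 of CKO over Ctrl with 0.5 FPKM added, for genes with a mean of at least 1 FPKM; intervals are computed from reads without it. No p-value was computed. Members are named if they are the most abundant, highest or lowest of their complex above a mean of 5 FPKM, past 1.5-fold, or copies of a subunit, and all Sdh genes, Cyc1 and Cycs; others were chosen after their values were seen. The members and lists were chosen with earlier results of these data known. 1 gene of complex I enters the counts and sums but is not reported by itself here. All 91 identifiers matched RefSeq. RefSeq names 22 pseudogenes after these genes, and 31 members share exon bases with another GENCODE gene, so some reads may be misassigned.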

Additional observations from a re-analysis of the deposited data

How the results depend on the processing

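Other minimum levels, structural subunits only, and the read ratio implied by the deposited p-value moved no summed ratio of a complex beyond its counting interval. A median has no such interval and was judged by the interval of its middle gene or genes. These settings, and adding 0.1 or 1 FPKM, moved no median beyond that bound, which is wide. It takes in the median of complex IV at 0.069 and at 0.013 with structural subunits only. It also takes in that of complex I at 0.04 and at -0.037 with libraries scaled to the same sum of FPKM. Scaling each library to the same sum of FPKM lowered every log2 ratio by 0.077 and centring on all genes tested raised it by 0.027. On the first scaling the log2 ratio of summed FPKM was -0.021 for complex I, 0.10 for complex II, 0.041 for complex III, -0.016 for complex IV and -0.071 for complex V. On the second it was 0.083 for complex I and 0.033 for complex V. Relative to genes of the same length decile it was -0.048 for complex I, 0.027 for complex III, -0.052 for complex IV and -0.080 for complex V. Without its most abundant gene, Sdhc, complex II had 0.10. Counting Ndufa4 and Ndufa4l2 in complex IV, which was tried only after seeing the data, gave 0.063 for complex I and 0.053 for complex IV. Members lower by 1.2-fold numbered 1 with a minimum of 5 FPKM, which removes Atp5s. Members higher by 1.5-fold numbered 0 with 1 FPKM added, on the first scaling and relative to length, and those lower by 1.5-fold numbered 2 with 0.1 FPKM added and on the first scaling. Of 29 genes named by rule, 2 moved beyond their counting interval on the first scaling, 6 relative to length and 0 under the other settings. The cause was not tested. No paired analysis was possible because each group has 1 library, and for the same reason none could be left out. Depth limits the members under 20 FPKM most: the interval of Cox7a1 spans a log2 ratio from 0.053 to 1.26.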
